A study of Homo sapiens with 6 samples.

Results

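The sites described here are LSD1 peaks of vehicle-treated NCI-H526 cells that were also called after treatment with an LSD1 inhibitor and that lie far from any called H3K4me2 or H3K4me1 interval. NCI-H526 is a human small cell lung cancer line. As background, it belongs to the tuft cell-like subtype that depends on the transcription factor POU2F3. Members were chosen by 3 conditions. A peak of the LSD1 list with DMSO had to share at least 1 bp with an LSD1 peak of the inhibitor list, to overlap no H3K4me2 or H3K4me1 interval called with DMSO, and to have the nearest interval of either mark more than 10 kb away, measured between edges. The rule found 3660 of the 45188 DMSO LSD1 peaks, which is 8.10% (95% Wilson interval 7.85 to 8.35%). They are called retained far peaks below.

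Chromatin immunoprecipitation followed by sequencing (ChIP-seq) gave the peak lists of 4 libraries of this line: LSD1 with DMSO, LSD1 with GSK552, H3K4me2 with DMSO and H3K4me1 with DMSO. GSK552 is the labels' short name for GSK2879552, an LSD1 inhibitor, given at 1 µM for 24 hours. The labels attach that treatment note to every library, and it was read here as holding for the GSK552 cells only. Cells of every group were of the same line, and the labels say only that the passages were multiple. Each group had 1 library, so no difference between lists carries a p-value, and the intervals given reflect only the number of peaks counted. Peaks close together share their surroundings and do not count as separate observations. The marks were called with DMSO only, so "far from marks" describes the vehicle state, also where inhibitor peaks are discussed.

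LSD1, encoded by KDM1A, is a flavin-dependent demethylase that removes methyl groups from mono- and dimethylated lysine 4 of histone H3. It works mostly within the CoREST complex with the deacetylases HDAC1 and HDAC2, and SNAG-domain repressors such as GFI1, GFI1B and INSM1 bring it to DNA. H3K4me1 is typical of enhancers and H3K4me2 of both enhancers and promoters. Neither enhancers nor promoters were called in these data, only intervals of both marks. No gene and no sequence is given for a peak here, since positions are on hg19 and a genome or gene table of that build was not used.

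LSD1 peaks were sparse in sequence far from marks. Sequence more than 10 kb from any called mark made up 2213 Mb, or 71.5% of the span of the lists, and held 8473 DMSO LSD1 peaks, 18.8% of the DMSO list. That is 3.83 LSD1 peaks per Mb, against 12.2 per Mb in unmarked sequence within 10 kb of a mark and 271 per Mb under a mark. The far sequence includes 50 mark-free stretches longer than 2 Mb, which were not searched for assembly gaps or repeats. With these stretches left out, the far sequence held 4.40 LSD1 peaks per Mb, of which 1.91 per Mb were retained with inhibitor.

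Far LSD1 peaks were found again with inhibitor less often than marked ones. Of all DMSO LSD1 peaks, 63.2% were overlapped by an inhibitor peak. Of the 8473 far peaks, 3660 were (43.2%, 42.1 to 44.3%), which left 4813 far peaks of the DMSO list without an inhibitor peak. Unmarked peaks within 10 kb of a mark were retained in 46.2% of cases (45.1 to 47.2%), peaks with H3K4me1 alone in 58.1% (56.6 to 59.5%), peaks with H3K4me2 alone in 77.5% (76.6 to 78.3%) and peaks with both marks in 79.4% (78.7 to 80.02%). The retained share of far peaks minus that of unmarked peaks near a mark was −2.95 points (−4.41 to −1.498), and minus that of peaks with both marks −36.2 points (−37.4 to −34.9). Against H3K4me1 alone the difference was smaller, at −14.9 points (−16.7 to −13.1). Being overlapped is part of the rule, so these shares describe how the members were selected.

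The gap to peaks with both marks was present at every DMSO score. In the lowest of 10 score deciles, 15.7% of far peaks and 40.2% of peaks with both marks were retained. In the fifth decile the shares were 38.6% and 74.1%. At the top they came closer, with 592 of 650 far peaks (91.1%, 88.6 to 93.0%) and 98.8% of peaks with both marks, where 96.5% of all top-decile peaks were retained. The interval of the difference lay below 0 in 10 of 10 deciles. It did so too against peaks with H3K4me1 alone, where the differences ran from −15.8 to −3.97 points. Against unmarked peaks near a mark, far peaks were lower in 10 of 10 deciles but with an interval below 0 in only 5, and in the ninth decile the shares were 76.1% and 76.2%.

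**Figure D1:**
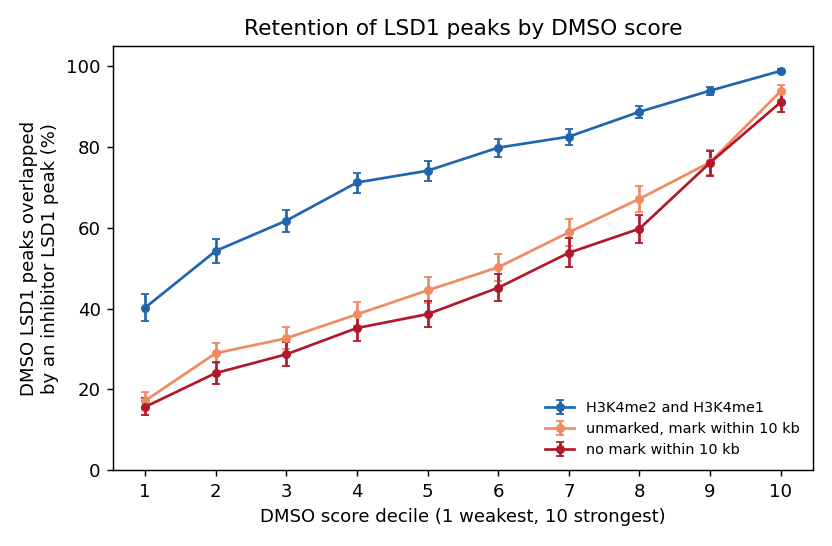
Share of DMSO LSD1 peaks overlapped by an inhibitor LSD1 peak (y axis, percent) by DMSO score decile (x axis), for peaks with both marks, unmarked peaks with a mark within 10 kb, and peaks with no mark within 10 kb. Bars are 95% Wilson intervals; the lowest line rises from 15.7% to 91.1% and the line for both marks from 40.2% to 98.8%.

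Retention also differed by width, so the shares were set out by width class. Among DMSO peaks of 1 kb or more, 82.5% of far peaks and 94.3% of peaks with both marks were retained. Among peaks under 200 bp the shares were 30.8% and 51.6%. Far peaks were below peaks with both marks in 5 of 5 width classes, each with an interval below 0. Against peaks with H3K4me1 alone they were lower in 5 classes, with an interval below 0 in 4 and a difference of −1.11 points (−6.24 to 3.98) at 1 kb or more. They were not below unmarked peaks near a mark in every class: at 1 kb or more, 82.5% of far peaks and 77.4% of near peaks were retained (difference 5.07 points, −0.215 to 10.2).

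Retained far peaks varied widely in their distance from a mark. The distance to the nearest mark had a median of 29.9 kb, with quartiles of 17.0 and 59.1 kb and a largest value of 1982 kb. H3K4me1 was the nearest mark for 2234 members (61.0%) and H3K4me2 for 1425 (38.9%). For H3K4me1 the share was 60.1% of far peaks not retained and 63.3% of retained unmarked peaks near a mark. The members minus far peaks not retained differed by 0.930 points (−1.17 to 3.03), so this split was not particular to the members. Members at 10 to 20 kb numbered 1203, those at 20 to 50 kb 1347, at 50 to 100 kb 662, at 100 to 200 kb 288 and beyond 200 kb 160. Just inside the threshold, the nearest member lay 10009 bp from a mark, at chr11:107449771-107450553 (fold 3.34 with DMSO). Just outside it was an unmarked retained peak at chr6:39270291-39271142, 9990 bp from a mark (fold 3.58). There were 173 members between 10 and 11 kb and 168 retained unmarked peaks between 9 and 10 kb, so the numbers on either side of the threshold were close.

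Far peaks deeper in mark-free sequence were retained slightly more often. The retained share was 41.3% (39.5 to 43.1%) at 10 to 20 kb, 47.0% (44.4 to 49.6%) at 50 to 100 kb and 51.0% (45.4 to 56.4%) beyond 200 kb. Beyond 50 kb it was 6.18 points higher than up to 50 kb (3.81 to 8.56). The median fold of the members rose with distance as well, so the shares were also compared within score deciles. The median DMSO fold of the members was 3.84 at 10 to 20 kb (3.79 to 3.89) and 4.21 beyond 200 kb (3.96 to 4.35). Within single score deciles, each with far fewer peaks, the difference between deep and less deep far peaks ran from −5.14 to 6.70 points. It was above 0 in 7 of 10 deciles, with its interval in 1. In the second decile it was 6.55 points (0.129 to 13.5) and in the top decile −2.52 points (−7.50 to 1.93). Within width classes it was above 0 in 5 of 5, with its interval in 4.

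**Figure D2:**
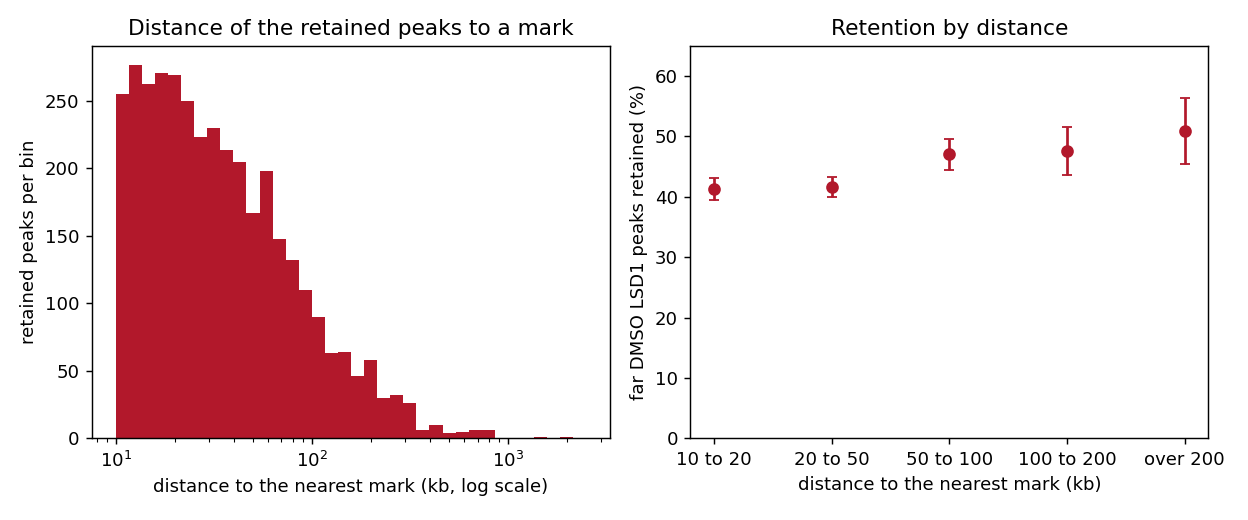
Left, number of retained far peaks (y axis) by distance to the nearest mark (x axis, kb, log scale). Right, share of far DMSO LSD1 peaks that were retained (y axis, percent) by distance (x axis, kb), with 95% Wilson intervals; the share runs from 41.3% at 10 to 20 kb to 51.0% beyond 200 kb.

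Retained far peaks were narrower than retained peaks on a mark, and their strength beside the other retained classes depended on the measure. Their DMSO peaks had a median width of 378 bp (quartiles 228 and 639 bp), close to the 382 bp of retained unmarked peaks near a mark and less than the 787 bp of retained peaks with both marks. Far peaks that were not retained had a smaller median of 275 bp, so a narrow width was not particular to the members. The inhibitor peaks paired with the members had a median of 291 bp, against 363 bp near a mark and 696 bp with both marks. The DMSO peak was the wider of the pair at 61.6% of members (59.97 to 63.1%) and at 51.3% of retained unmarked peaks near a mark, a difference of 10.3 points (8.09 to 12.4). With H3K4me1 alone the share was 57.6%, with both marks 56.7% and with H3K4me2 alone 42.7%. The list medians, which include unpaired peaks, were 471 bp with DMSO and 388 bp with inhibitor. Over all retained pairs the medians were closer, at 585 and 542 bp. With H3K4me2 alone the inhibitor peaks had the larger median, 729 bp against 628 bp.

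**Figure D3:**
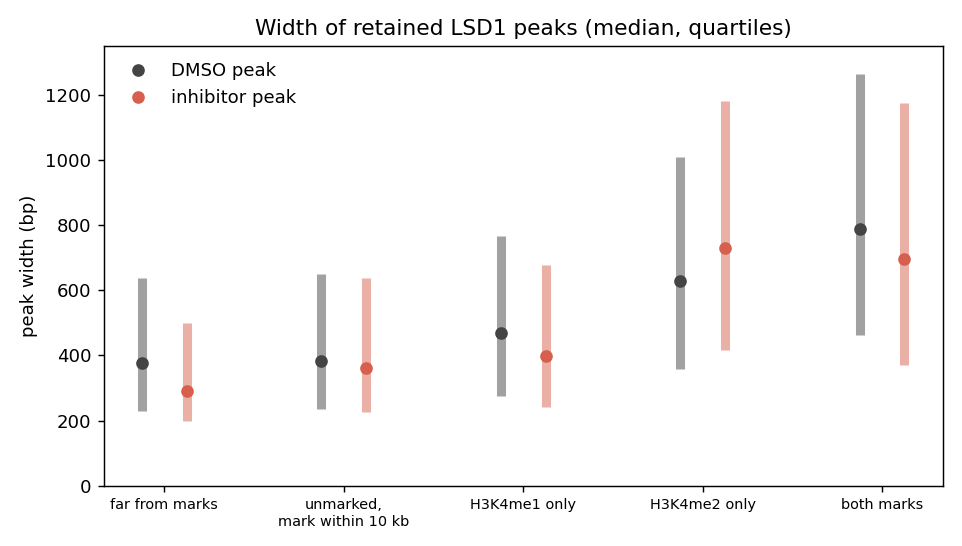
Width of retained LSD1 peaks in bp (y axis) by class of mark (x axis), with the DMSO peak in grey and the inhibitor peak in red. Points are medians and bars run between the quartiles; the far peaks have medians of 378 and 291 bp and the peaks with both marks 787 and 696 bp.

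The authors' fold enrichment of the members with DMSO ranged from 1.97 to 11.4 with a median of 3.90 (interval of the median 3.87 to 3.93). Retained unmarked peaks near a mark had a median fold of 3.75 (3.73 to 3.78), retained peaks with both marks 3.83 (3.81 to 3.85) retained peaks with H3K4me1 alone 3.86 (3.82 to 3.91) and retained peaks with H3K4me2 alone 3.56. Far peaks that were not retained had a median of 3.46. By median −log10 q the order differed: 2.35 for members, 2.24 near a mark, 2.00 with H3K4me2 alone, 2.50 with H3K4me1 alone and 2.57 with both marks. Fold is set against the caller's local background, as implied by fold and p-value. Its median was 0.912 times the list median for members, 1.04 near a mark, 1.12 with H3K4me1 alone, 1.21 with H3K4me2 alone and 1.27 with both marks. A fold of 5 or more was reached by 565 members (15.4%, 14.3 to 16.6%), while 11.7% of all retained peaks and 7.82% of all DMSO peaks reached it. Near a mark the share was 11.3%, which is 4.19 points lower (2.69 to 5.69). With H3K4me1 alone it was 15.3%, and the members minus that class differed by 0.106 points (−1.73 to 1.91), so a high share of such peaks was not particular to the members.

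Members stood at both ends of the DMSO ranking. The top score decile held 592 of them (16.2%, 15.02 to 17.4%), and the lowest decile 196 (5.36%). Over all retained peaks these shares were 15.3% and 4.13%. In the top decile stood 13.5% of retained unmarked peaks near a mark, 18.6% of those with H3K4me1 alone and 19.9% of those with both marks, so the members lay between the classes. Among the 100 highest-scoring DMSO peaks 21 were members, and among the 1000 highest 150 (12.9 to 17.3% of them), compared with 119 unmarked peaks near a mark. These 1000 held 4.098% of all members, beside 3.497% of all retained peaks. With both marks the share was 4.626%, with H3K4me1 alone 5.226%, with H3K4me2 alone 1.039% and near a mark 2.716%. Here too the members lay between the classes. On the inhibitor side, 22 members had their paired peak among the 100 highest-scoring inhibitor peaks. The top 100 of both lists held 6 members, 6 retained peaks with H3K4me1 alone and 9 with both marks. Only retained peaks were counted here.

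The order of the members was only partly shared between the lists. Across the 3660 pairs the −log10 q of the DMSO and inhibitor peaks had a Spearman correlation of 0.491, the widths 0.368 and the folds 0.450; the pairs come from 1 library each and share the local background of their site. The correlation of −log10 q was 0.462 for retained unmarked peaks near a mark and 0.564 for those with both marks. The highest 5% of both lists held 162 members (4.43%, beside 3.92% of all retained peaks), and the top decile of both held 310 (8.47%, beside 8.20%). Members of the top DMSO decile had a median place of 8.61% in the inhibitor list, and those of the lowest decile a median place of 59.1%. At the other extreme, 104 members (2.84%, beside 2.39% of all retained peaks) were in the top decile of one list and the lower 50% of the other. All 3 shares were near those of retained peaks in general.

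**Figure D4:**
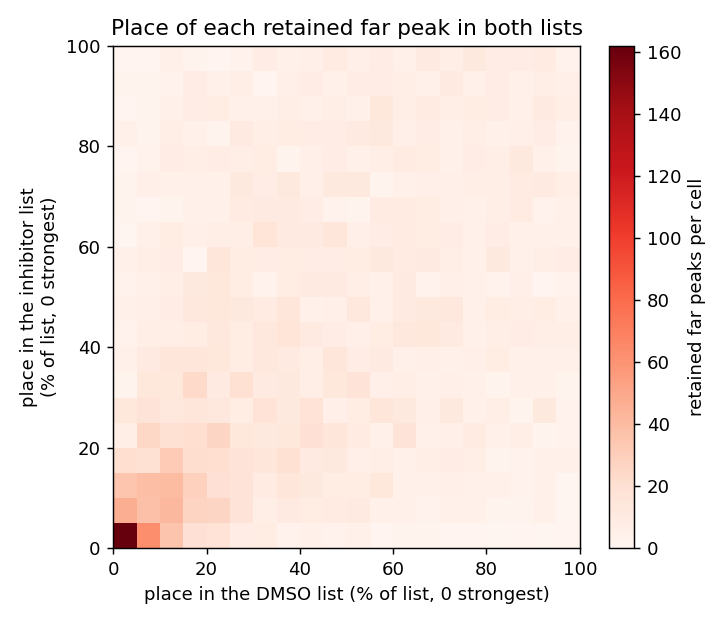
Place of each retained far peak in the DMSO list (x axis, percent of the list, 0 strongest) and of its inhibitor peak in the inhibitor list (y axis, percent of the list, 0 strongest). Colour gives the number of peaks per cell; 162 of the 3660 peaks lie in the corner at the top 5% of both lists.

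The paired peaks mostly sat on the same short stretch. The part shared by the DMSO and inhibitor peak had a median of 211 bp, and their centres were a median of 84.0 bp apart, against 103 bp for retained unmarked peaks near a mark and 181 bp for peaks with both marks. These distances were not scaled by peak width, and retained peaks with both marks were wider. The DMSO centre fell inside the inhibitor peak at 2706 members (73.9%), beside 74.7% of all retained peaks, so this was not particular to the members. A reciprocal overlap of 50% was found at 2138 members (58.4%, 56.8 to 60.002%), beside 52.8% of all retained peaks. Near a mark that share was 52.4%, a difference of 6.06 points (3.88 to 8.24). The inhibitor peak lay wholly inside the DMSO peak at 1068 members (29.2%), 6.36 points more than near a mark (4.43 to 8.29). With H3K4me1 alone the share was 27.8%, a difference of 1.34 points (−0.936 to 3.60), with both marks 27.3% and with H3K4me2 alone 17.8%. The DMSO peak lay wholly inside the inhibitor peak at 615 members (16.8%), beside 22.2% of all retained peaks. More than 1 inhibitor peak overlapped 18 members (0.492%), beside 2.68% of all retained peaks.

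The 10 members with the highest DMSO scores had folds of 8.39 to 11.4 with DMSO and 4.68 to 13.8 with inhibitor. The strongest was chr8:72407515-72409225, 1711 bp wide, with a fold of 10.2 (rank 5) with DMSO and 7.07 (rank 131) with inhibitor. It lay close to the distance threshold, 10.3 kb from the nearest H3K4me1 interval and 50.2 kb from H3K4me2. The next, chr5:103961754-103962175, was compact and remote. It had folds of 11.4 (rank 9) and 10.8 (rank 136), its inhibitor peak of 351 bp lay wholly within the 422 bp DMSO peak, and the nearest H3K4me2 and H3K4me1 intervals were 285 and 396 kb away.

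At several of the strongest members a wide DMSO peak enclosed a narrower inhibitor peak. In the 3 given here the inhibitor peak lay to one side of the DMSO centre. At chr7:12178234-12179668 a DMSO peak of 1435 bp (fold 8.39, rank 19) enclosed an inhibitor peak of 558 bp (fold 13.8, rank 5), with H3K4me1 21.1 kb and H3K4me2 26.3 kb away. At chr17:28637118-28640261 a DMSO peak of 3144 bp (fold 8.97, rank 25) enclosed one of 906 bp (fold 7.29, rank 8). The peak at chr6:149497508-149498708 was 1201 bp wide with DMSO (fold 9.41, rank 41) and 502 bp with inhibitor (fold 12.05, rank 10). These 3 sites stood among the 10 highest-scoring peaks of the inhibitor list while lying 17.0 to 21.1 kb from any called mark.

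Other strong members kept their place less evenly. The peak at chr1:26774011-26774891 (fold 10.6, rank 32) had an inhibitor peak of 628 bp with a fold of 13.1 and rank 3. The peak at chr1:101217724-101219135 had folds of 9.71 and 9.24, with ranks 43 and 220. At chr2:50921932-50922605 the inhibitor peak was the wider, with 1212 bp against 674 bp, and the folds were 10.8 (rank 46) with DMSO and 7.83 (rank 917) with inhibitor. The tenth, chr9:5391563-5393321, had folds of 9.43 (rank 50) and 6.03 (rank 1383). The largest drop within the 10 was at chr4:118214990-118215305, a 316 bp peak with the highest DMSO fold of all members, 11.4 (rank 44), whose inhibitor peak of 207 bp had a fold of 4.68 and rank 9840. It was also the only one of the 10 with no other DMSO LSD1 peak within 50 kb. Of the 10, 8 were among the 1000 highest-scoring inhibitor peaks.

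Ordered by the mean of their places in both lists, 6 of these 10 stayed among the first 10. They were joined by chr1:190705606-190706615 (folds 10.1 and 10.8, ranks 64 and 76), chr1:52550671-52552510 (folds 9.35 and 11.6), chr13:56227076-56228364 (6.46 and 11.7) and chr11:122619869-122620682 (5.85 and 8.76). The chromosome 13 site was 225 kb from the nearest mark of either kind. The site at chr1:190705606-190706615 lay in a mark-free stretch of 1300 kb that held 4 members.

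Large differences in place between the lists occurred in both directions. The peak at chr4:126963033-126963341 stood at 2.50% of the DMSO list (fold 6.84) and at 98.95% of the inhibitor list (fold 3.41), 586 kb from a mark. The peak at chr8:88633189-88633613 went from 6.65% (fold 5.53) to 98.7% (fold 3.38). In the other direction, chr9:6381407-6381943 stood at 96.2% with DMSO (fold 3.21) and at 0.294% with inhibitor (fold 10.4, rank 146), 31.8 kb from a mark. Likewise chr5:120773687-120774036 moved from 90.99% (fold 3.14) to 5.72% (fold 6.69). Each is a comparison of 2 single libraries, and the lists differ in length and in the range of their scores.

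The widest members differed in strength. The widest, chr12:110253033-110256180, covered 3148 bp with a fold of 3.33 (rank 30689) with DMSO, and its inhibitor peak covered 1305 bp with a fold of 4.07. The second widest was the chromosome 17 site above, among the strongest in both lists, and the third was chr4:41026851-41029968, of 3118 bp with folds of 4.29 and 5.85. At chr17:10158274-10161217 both peaks were wide, 2944 bp with DMSO and 2436 bp with inhibitor. A width of 1 kb or more was found at 329 members (8.99%) and of 2 kb or more at 26 (0.710%), beside 9.06% and 0.730% of retained unmarked peaks near a mark. Over all retained peaks both shares were higher, at 24.44% and 4.198%. Of far peaks not retained, 1.454% were 1 kb or more wide.

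The 5 most remote members were 213 to 569 bp wide with DMSO. The farthest on the autosomes, chr9:47204809-47205064, lay 1475 kb from a mark within a mark-free stretch of 20728 kb and had folds of 4.35 and 5.32. Next on the autosomes came chr3:77882597-77882809 at 778 kb, with folds of 4.76 and 4.61, and chr12:87419864-87420432 at 760 kb, with folds of 5.39 and 5.28. On the sex chromosomes, chrY:9991210-9991439 was 1982 kb from a mark with folds of 3.54 and 3.72, and chrX:61717721-61717964 was 850 kb away with folds of 2.30 and 1.99. For the X site the local background of the peak caller, as implied by the fold and p-value of the peak, was 9.62 times the list median with DMSO and 8.97 times with inhibitor. Mark-free stretches longer than 2 Mb held 20 members in all.

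Retained far peaks mostly had no close neighbour. The rule itself bears on this, since it clears marked sequence around each member and 27220 of the 45188 DMSO peaks lie under a mark. Another DMSO LSD1 peak within 12500 bp was present at 850 members (23.2%, 21.9 to 24.6%), beside 64.5% of retained unmarked peaks near a mark, and it was lower the larger the distance the rule asked for. Far peaks that were not retained had a neighbour in 25.4% of cases, and the members minus these differed by −2.17 points (−3.997 to −0.319). Within 50 kb, 70.1% of members had a neighbour, beside 74.3% of far peaks not retained, 89.2% of retained unmarked peaks near a mark and 85.8% of all DMSO peaks. The median gap from a member to the nearest other member was 195 kb. Of the 27692 mark-free stretches long enough to hold far sequence, 3012 (10.9%) contained a member and 2522 of these contained exactly 1.

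Long mark-free stretches held members more often but less densely. Stretches of 20 to 50 kb contained a member in 3.59% of cases, those of 100 to 200 kb in 20.8% and those of 0.5 to 2 Mb in 39.5%. Per Mb of far sequence there were 3.05, 2.16 and 0.835 members in the same 3 classes. All far DMSO peaks were sparser in long stretches too, with 7.99 per Mb in the shortest class and 1.65 in the longest, while the share retained was 38.1% in the shortest class and 50.6% in the longest.

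A few groups of members stood close together. Stitched over gaps of up to 12500 bp, 3316 of the members were alone, 144 groups held 2 and 16 groups held 3 or more. The largest group was chr12:110235777-110283925, with 7 members among 9 DMSO and 10 inhibitor peaks over 48.1 kb, folds of 3.33 to 4.65, and distances of 24.2 to 47.3 kb to a mark; it includes the widest member. The second was chr19:3304846-3324887, with 5 members over 20.04 kb and folds of 3.30 to 4.92. At chr19:13387612-13396874, 4 members lay within 9.26 kb. The group at chr2:41720567-41729413 differed from these in strength and isolation, with 3 members of folds up to 8.45 (best rank 75) at 118 to 126 kb from a mark.

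Chromosome 19 also held 4 of the 5 members with the most LSD1 peaks around them. These were chr19:860954-861860 and chr19:3344192-3345598, each with 19 other DMSO LSD1 peaks within 50 kb, and a pair at chr19:857571-857753 and chr19:858483-858986, which were overlapped by one and the same inhibitor peak of 2029 bp. All 4 lay 11.5 to 14.9 kb from a mark, near the threshold, and had DMSO folds of 3.20 to 3.91. The remaining one was chr12:124977912-124979085, with 18 neighbours. Chromosome 19 is known as the most gene-dense human chromosome.

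Over chromosomes 1 to 22 and X, members made up between 4.26% of the DMSO peaks of chromosome 22 (3.08 to 5.87%) and 12.46% of those of chromosome 13 (11.001 to 14.1%). The median was 7.77%. Chromosome Y had 5 members among only 17 DMSO peaks (29.4%, 13.3 to 53.1%). Chromosomes rich in marks leave less far sequence, so members were also counted per Mb of far sequence, with stretches longer than 2 Mb left out. Chromosome 19 was then densest, with 4.53 members per Mb (exact Poisson interval 3.77 to 5.40). Chromosome 13 followed with 3.31 (2.88 to 3.78). Without chromosome Y, the lowest were chromosome 10 with 0.838 (0.663 to 1.05) and chromosome X with 0.947 (0.770 to 1.15), and the median was 1.95. Chromosome Y, with 4 members counted, was at 0.591 (0.161 to 1.51). The far peaks of chromosomes 13 and X were retained most often, at 52.1% and 52.5%, and those of chromosomes 19 and 20 least often, at 35.6% and 34.96%.

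**Figure D5:**
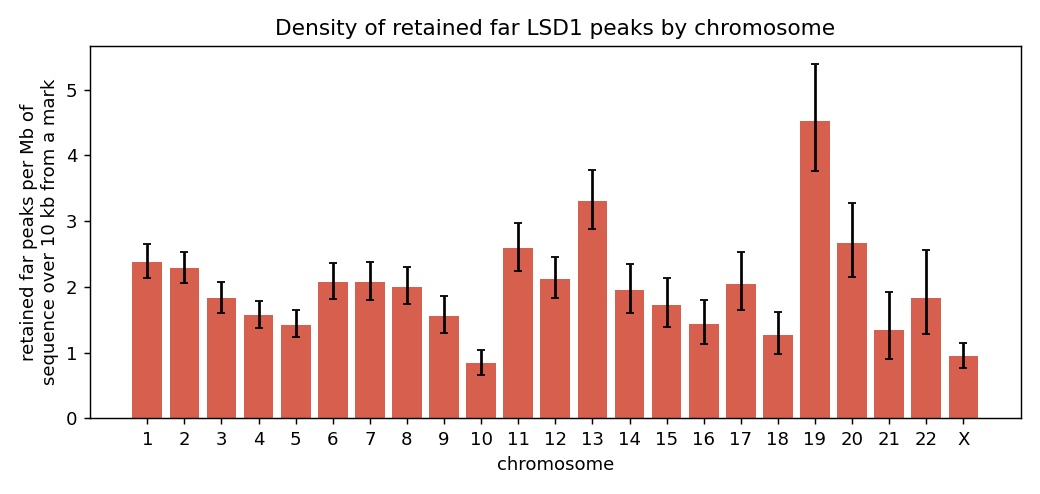
Retained far LSD1 peaks per Mb of sequence more than 10 kb from a mark (y axis), by chromosome (x axis), without mark-free stretches longer than 2 Mb. Chromosome Y is not shown. Bars are densities and lines 95% exact Poisson intervals; chromosome 19 reaches 4.53 and chromosome 10 is at 0.838.

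The density per chromosome moved with the background implied by the folds and p-values of all DMSO LSD1 peaks. That background had a chromosome median of 1.43 times the list median on chromosome 13 and 1.42 on chromosome 11, which had 2.59 members per Mb of far sequence. It was 0.743 on chromosome 10 and 0.751 on chromosome X. Across the 23 chromosomes the Spearman correlation of both measures was 0.704 and Pearson's 0.510, and without chromosome 19, where the background was 0.903, they were 0.796 and 0.822. The density also moved with the number of mark intervals per Mb, with a Spearman correlation of 0.672 and Pearson's of 0.616 (0.635 and 0.482 without chromosome 19). The chromosomes belong to the same library, so these values are a description; the part of either measure in the densities was not tested.

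A small set of members lay in sequence of strongly raised background. For 20 of the 3660 (0.546%, 0.354 to 0.843%) the implied background was over 6 times the list median, and 19 of them were raised in the inhibitor list too. The share was 0.401% of all DMSO peaks, 0.449% of all retained peaks, 0.561% of far peaks not retained and 0.844% of retained unmarked peaks near a mark, so it was not particular to the members. Of these, 17 were on chromosome 2, 2 on chromosome X and 1 on chromosome 10. They had a median DMSO fold of 2.33, against 3.90 for the other members, with scores that were not low: chr2:15486777-15487196 had a fold of 2.77 at rank 419 and a background of 20.1 times the median. The highest, chr2:15984928-15985571, reached 37.8 times with DMSO and 42.8 times with inhibitor, with folds of 2.00 and 1.90. As background, NCI-H526 is known to carry an amplification of MYCN, a gene of chromosome 2; whether these peaks lie in the amplified segment was not tested.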

How the data were processed

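Positions are on hg19, and the tools listed in the submitters' processing notes are BWA, Picard and MACS2 2.0. The control library, duplicate handling and sequencing depth were not given in the sources used here. So precision is known for counts of peaks only. The deposited score is 10 times the −log10 q of the peak, found from the values. The authors' fold enrichment, as deposited, sets the peak against the caller's background, a ratio. Values of −log10 p and −log10 q were used as deposited, for order and filters within a list. The smallest −log10 q is 1.00 and 1.01 in the LSD1 lists and 2.02 and 2.01 in the H3K4me2 and H3K4me1 lists. Mark rows sharing an interval were joined, giving 81619 H3K4me2 and 94689 H3K4me1 intervals beside 45188 and 49597 LSD1 peaks. Of the 6 samples, 2 inputs were not used here.

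Where several inhibitor peaks overlapped a member, the one sharing most bases was its pair. Shares carry 95% Wilson and differences Newcombe intervals, medians binomial order intervals. The implied background is the value at which (pileup + 1)/(background + 1) equals the fold and the Poisson p-value matches, relative to the list median; broad peaks average these values, so it is approximate. Overlap and distance searches were tested on 478 simulated peaks and equalled a count of all pairs in 100%. Python 3.11.15, NumPy 2.4.6, SciPy 1.17.1 and pandas 2.3.3 were used. The members, lists and comparisons were chosen with earlier results of these data known. Named regions are the 10 highest DMSO scores, the 10 lowest mean places, the 5 widest, the 5 farthest, the 5 with most neighbours within 50 kb, the 5 largest differences in place each way, and the 3 each side of the threshold; the text gives the leading ones. The implied background with its limit of 6, the limit of 2 Mb on stretches, the fold of 5, the width and distance classes, the separation at 50 kb and the groups of members were chosen after values were seen. Planned sequence, motif and gene annotation results were left out, since no genome of the hg19 build was used here.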

Additional observations from a re-analysis of the deposited data

How the results depend on the processing

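For 7 values, 11 alternatives gave 77 recomputed values. Of these, 30 stayed within the interval of the reported value (for the number of members, within 1.5 times) and 47 moved. All 7 stayed so on chromosomes 1 to 22 and, chosen after seeing the data, without the members of raised background. With a distance over 5 kb there were 4649 members, 10.3% of DMSO peaks, with a median fold of 3.87 and 33.3% with a neighbour within 12500 bp. Over 20 kb there were 2457, and these shares and the fold were 5.44%, 17.99% and 3.94, with a median width of 358 bp. Over 50 kb there were 1110 members (2.46%), 47.7% of far peaks were retained, and the members had a median of 339 bp, a fold of 4.02, 13.5% with a neighbour and 20% in the top decile. A reciprocal overlap of 50% left 2138 members (4.73%, 25.2% of far peaks, 319 bp, fold 4.05, 21.1% with a neighbour, 20.2% in the top decile). A DMSO centre inside the inhibitor peak gave 5.99% of DMSO peaks, 31.9% of far peaks, 317 bp, fold 4.02 and 18.7% in the top decile. A −log10 q of 2 or more in both LSD1 lists left 2049 members (9.44%, 58.3% of far peaks, fold 4.38, 10.9% with a neighbour, 27.96% in the top decile). The highest-scoring 50% of each LSD1 list left 1717 (7.60%, 46.8% of far peaks, 403 bp, fold 4.45, 11.1% with a neighbour, 31.5% in the top decile). With the highest-scoring 50% of each mark list there were 5804 (12.8%, 47.5% of far peaks, 403 bp, 28.0% with a neighbour, 17.4% in the top decile). With the inhibitor list at the length of the DMSO list, members were 7.65% of DMSO peaks and 40.8% of far peaks. Fewer or more peaks and intervals enter by construction; other causes were not tested. Checks of GC content, masked sequence, motifs and gene annotation were not run. No paired analysis was possible because there was a single library of each kind, with no tests. Depth is unknown, so a peak missing from a list may only have missed its threshold.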

Other observations

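The inhibitor list held slightly more peaks far from marks than the DMSO list, 8512 against 8473, which was a smaller share of its longer list. Of its 49597 peaks, 17.2% lay more than 10 kb from any mark called with DMSO, 1.59 points less than with DMSO (1.10 to 2.08). A DMSO peak overlapped 3679 of them (43.2%, 42.2 to 44.3%). The other 4833 were called with inhibitor only, with a median fold of 3.85 against 4.36 for the overlapped ones and a median width of 198 bp against 289 bp, and 102 of them stood in the top decile of the inhibitor list. On the DMSO side, 58 far peaks of the top decile had no inhibitor peak. The inhibitor peaks that overlap a retained far peak numbered 3654, of which 13 were themselves within 10 kb of a mark or on one.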
